A study of Mus musculus with 6 samples.

Results

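The genes described here serve protein folding in the endoplasmic reticulum (ER) and the disposal of proteins that fail to fold, a process called ER-associated degradation (ERAD). The set holds 10 genes, chosen by symbol: Xbp1, Edem1, Edem2, Edem3, Ero1l, Ero1lb, Herpud1, Sel1l, Pdia4 and Creld2. They carried 18 of the 41174 non-control probes on a mouse 1-colour Agilent array, and 10 of the 28301 named genes. The samples were 6 RNA preparations of female mouse skeletal muscle, labelled as proliferating satellite cells, which are the stem cells that lie along muscle fibres. There were 3 from Magic-F1+/+ animals and 3 from controls, called biological triplicates. Magic-F1 is an engineered factor derived from hepatocyte growth factor that activates the Met receptor, and the series is titled as a model of muscle hypertrophy. The sample titles add "Omo Sat" for the Magic-F1 samples and "MLC3F Sat" for the controls. Strain, age, isolation procedure, the promoter driving Magic-F1 and any pooling of animals are not given in the sources used here.

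Secreted and membrane proteins enter the ER unfolded, fold with the help of chaperones and gain disulfide bonds through protein disulfide isomerases, which ER oxidoreductins (Ero1) keep oxidised. Glycoproteins that stay misfolded are trimmed by EDEM proteins, handed to a ubiquitin ligase complex built on Sel1l and Syvn1 (Hrd1), pulled into the cytosol and degraded by the proteasome. When unfolded proteins build up, the sensors Ern1 (IRE1), Eif2ak3 (PERK) and Atf6 start the unfolded protein response (UPR). Ern1 then splices the Xbp1 mRNA, and the protein made from the spliced form raises transcription of folding and ERAD genes. Dividing myoblasts and secretory cells such as macrophages both use this machinery.

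Promoter sequences are shown for the 3 members that hold a UPR sequence motif, because these genes did not move in the same direction. RefSeq promoters (GRCm38.p6) matched all 10 members, Ero1l under its present symbol Ero1a and Ero1lb as Ero1b. Windows of 300 bases, 250 before and 50 after the gene start, were searched on both strands for 3 motifs. The ER stress response element (ERSE) is CCAAT, 9 bases of any kind and CCACG. ERSE-II is ATTGG, 1 base of any kind and CCACG. The UPR element core is TGACG followed directly by TGG. ERSE lay in 2 members, Creld2 and Ero1lb, and in 0.119% of all 32851 promoters. ERSE-II lay in 1 member, Herpud1, and in 0.0365% of all promoters. The UPR element core lay in 0 members and in 0.676% of all promoters, and no match overlapped another. The 250 bases before each start follow, 5′ to 3′ on the gene's strand, with the motif in capitals. For Creld2 (chr15:88819396-88819645, plus strand) the ERSE reads on the opposite strand, 126 to 108 bases before the start. For Ero1lb (chr13:12565633-12565882, plus strand) it also reads on the opposite strand, 201 to 183 bases before the start. For Herpud1 (chr8:94386179-94386428, plus strand) the ERSE-II reads on the gene's strand, 52 to 42 bases before the start.
Creld2: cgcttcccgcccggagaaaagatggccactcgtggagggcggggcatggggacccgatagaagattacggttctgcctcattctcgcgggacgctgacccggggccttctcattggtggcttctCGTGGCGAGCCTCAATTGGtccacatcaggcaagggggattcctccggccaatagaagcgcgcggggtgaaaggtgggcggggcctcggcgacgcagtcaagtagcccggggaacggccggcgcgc
Ero1lb: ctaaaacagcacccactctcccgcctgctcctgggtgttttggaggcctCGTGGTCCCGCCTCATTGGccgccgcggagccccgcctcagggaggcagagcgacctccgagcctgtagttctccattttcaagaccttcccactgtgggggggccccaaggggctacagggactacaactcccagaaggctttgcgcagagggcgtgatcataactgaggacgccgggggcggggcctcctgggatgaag
Herpud1: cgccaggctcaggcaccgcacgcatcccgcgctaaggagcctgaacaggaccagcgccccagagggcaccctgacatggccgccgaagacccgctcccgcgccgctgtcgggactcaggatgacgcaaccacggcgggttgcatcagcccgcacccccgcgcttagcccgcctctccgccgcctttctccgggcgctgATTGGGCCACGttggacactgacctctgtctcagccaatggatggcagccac

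Array probes are shown for 5 members because a measured change belongs to the stretch of mRNA its probe binds. All are 60 bases long, printed in lower case with no part picked out, and coordinates are those of mm9 (NCBI37) in the scanner files. The Edem1 probe A_52_P354520 (chr6:108804262-108804321, plus strand) starts at base 1787 of transcript NM_138677. The Edem2 probe A_52_P317040 (chr2:155534678-155534737, minus strand) starts at base 1093 of NM_145537. The Ero1l probe A_52_P423424 (chr14:45905723-45907426, minus strand) starts at base 1352 of NM_015774, and its coordinates span 1704 bases, more than the probe's length. The Ero1lb probe A_52_P603836 (chr13:12696604-12696663, plus strand) starts at base 1412 of NM_026184. The Pdia4 probe A_51_P328300 (chr6:47746516-47746575, minus strand) starts at base 2045 of NM_009787.
Edem1: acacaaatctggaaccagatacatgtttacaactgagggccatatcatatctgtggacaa
Edem2: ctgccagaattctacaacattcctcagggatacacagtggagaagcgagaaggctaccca
Ero1l: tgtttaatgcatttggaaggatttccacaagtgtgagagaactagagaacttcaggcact
Ero1lb: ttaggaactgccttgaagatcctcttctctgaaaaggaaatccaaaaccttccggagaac
Pdia4: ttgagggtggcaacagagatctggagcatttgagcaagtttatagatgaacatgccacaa

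The Magic-F1 and control arrays differed widely, which sets the background for every count below. The correlation of log2 signals was at least 0.9957 within a group and at most 0.8485 between groups. Signals are given as log2 of the background-corrected spot intensity minus the array's 75th percentile, called the normalised log2 signal. That percentile lay between 341 and 356 intensity units on the Magic-F1 arrays and between 275 and 292 on the control arrays. Between 49.2% and 52.0% of spots were well above background, and 0 were saturated. The number of arrays, 3 per group, limits the precision. With limma and Benjamini-Hochberg adjustment over 21190 tested probes, 41.3% of probes were called higher and 46.5% lower in Magic-F1 at adjusted p under 0.05. By the brightest probe of each gene, 40.6% of 14905 genes were called higher and 47.7% lower. Scaling to the viral spike-in controls in place of the 75th percentile moved the median change of all genes from -0.15 to 0.29 on the log2 scale. It also moved the split of calls, from 8745 probes higher and 9847 lower to 10977 higher and 7261 lower.

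The samples labelled Magic-F1 did not carry satellite cell markers at the level of the controls. Of 9 tested satellite cell and myoblast markers, 9 were lower in Magic-F1, among them Pax7, the factor that defines satellite cells, and Myod1 (log2 change -4.21). None of the Magic-F1 arrays had Pax7 well above background, and Myf5 did not pass the filter for testing. The summed linear level of that list, in multiples of the array's 75th percentile, was 59.1 to 60.5 in Magic-F1 and 626 to 661 in controls. Macrophage markers ran the other way: 12 of 13 were higher in Magic-F1, with log2 changes of 5.80 for Cd68, 4.89 for Adgre1 and 6.08 for Csf1r. Of the 14 macrophage markers listed, 13 were tested, and 1 of these had no control array well above background. The summed level of the 13 was 1391 to 1458 against 422 to 449.6. Adipocyte markers were higher in 7 of 7 tested, out of 9 listed, summing to 461 to 489 against 58.6 to 65.3. Among the 7, 1 had no control array well above background. Neutrophil markers were lower in 9 of 10, summing to 1.88 to 1.96 against 588 to 633, and 5 of them, S100a9 included, had no Magic-F1 array well above background. B and plasma cell markers, of interest because plasma cells depend on Xbp1, were higher in 2 and lower in 6 of 9, with sums of 20.6 to 22.1 against 23.0 to 25.7. Of these, Mzb1 and 1 other had no Magic-F1 array well above background, 2 markers had no control array above it, and Jchain did not pass the filter for testing. Fibroblast markers were higher in 4 and lower in 6 of 10 (897 to 918 against 1131 to 1162), and endothelial markers higher in 3 and lower in 5 of 8. The endothelial list had a median log2 change of -3.87, and 3 of its markers, Pecam1 and Cdh5 included, had no Magic-F1 array well above background. Its summed level was nevertheless 17.6 to 19.1 in Magic-F1 against 10.0 to 10.4, with a log2 change of 3.58 for Vwf, a gene named after its values were seen. The part of these cell types in the results on ER genes was not tested. In such bulk RNA, fewer cells of a type and less RNA per cell cannot be told apart.

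The 10 ER genes did not move as a block. By the brightest probe, 6 were higher in Magic-F1 (Xbp1, Ero1lb, Edem1, Edem2, Edem3 and Sel1l) and 4 were lower (Ero1l, Pdia4, Creld2 and Herpud1). Against the background of 40.6% of genes higher and 47.7% lower, these counts over 10 genes do not set the set apart. The groups did not overlap for any of these 10 probes, as for 89.1% of all tested probes. The median log2 change was 0.61 over the members and -0.15 over all tested genes. It was 0.18 against -0.17 after normexp background correction and 1.05 against 0.29 after spike-in scaling. With Edem3, dim in controls, set at its bound the members' median was 0.33. Divided by role, 4 of the 5 genes of ERAD were higher by the brightest probe, and 3 of the 4 folding and oxidation genes were lower. That difference between roles was not tested, and it rests in part on genes whose direction depended on the processing or the probe. Edem3 changed by -0.11 after normexp correction, Pdia4 by 0.13 after spike-in scaling, and a second, dimmer Ero1l probe by 0.18. Direction held under every other processing that gave a test for 12 of the 15 tested member probes.

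**Figure D1:**
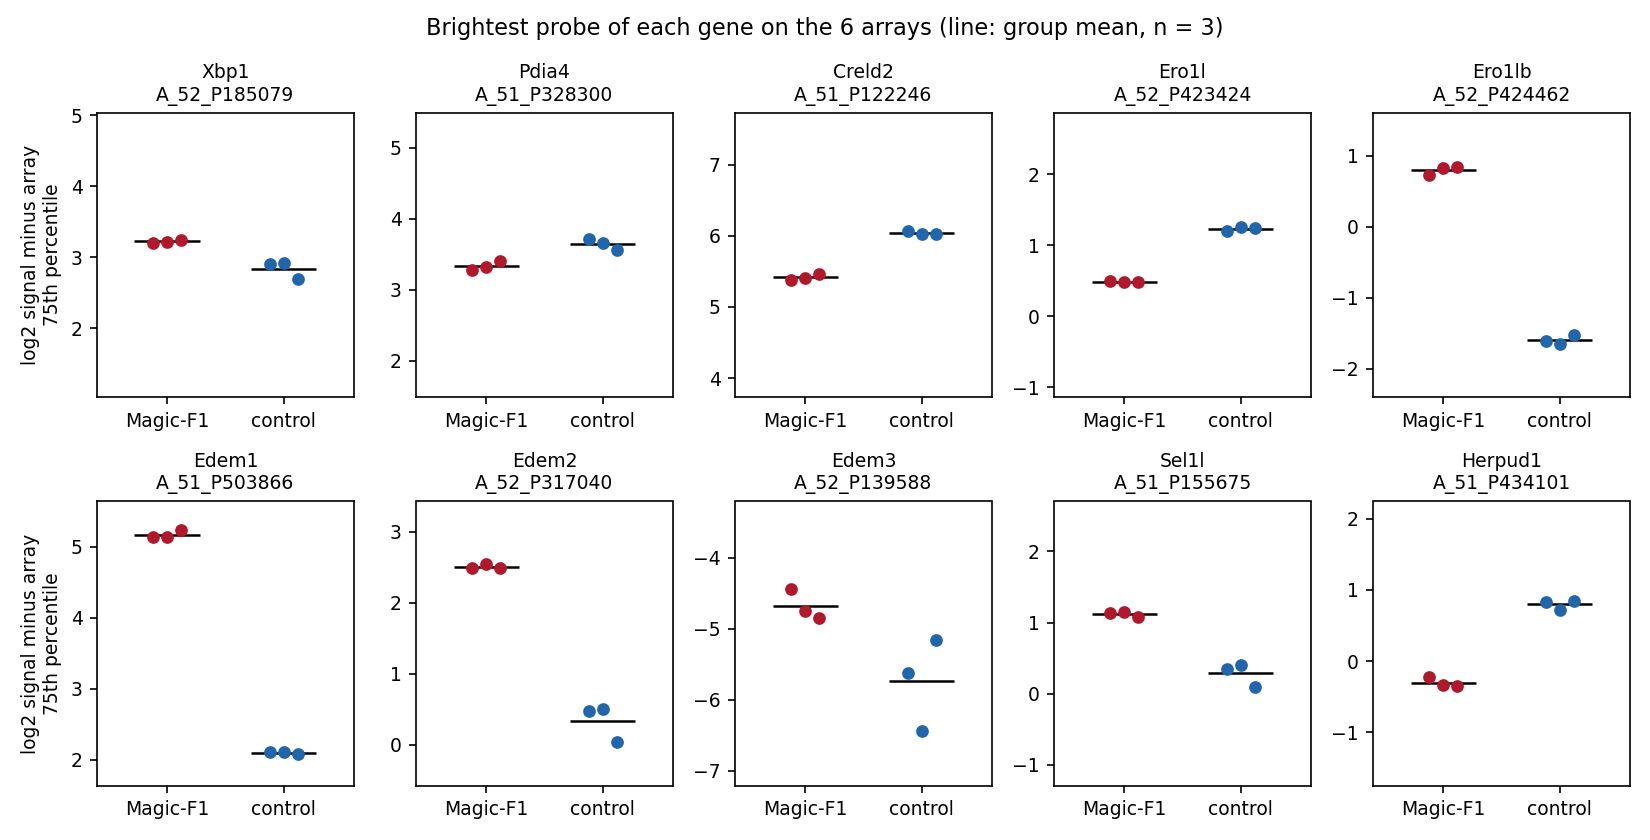
Normalised log2 signal (log2 intensity minus the array's 75th percentile) of the brightest probe of each gene, one panel per gene and one point per array, with a line at each group mean (n = 3). Each panel covers the same range on its axis, and the Magic-F1 points lie above the controls for 6 genes and below them for 4.

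Xbp1, the transcription factor of the IRE1 arm, was slightly higher in Magic-F1. Its one probe, A_52_P185079 (chr11:5424970-5425029, plus strand, NM_013842), read 3.20, 3.22 and 3.25 in Magic-F1 replicates 1, 2 and 3, and 2.91, 2.91 and 2.69 in the controls. All 3 Magic-F1 values lay above all controls, and control replicate 3 was the lowest. Its log2 change was 0.39 ± 0.074 (SE, n = 3 against 3), a 1.31-fold difference with an adjusted p of 0.00272 in limma. It was 0.43 within slide 1, 0.31 within slide 2 and 0.83 after spike-in scaling. A single probe gives the total of the spliced and unspliced mRNA, so these arrays do not measure the active form.

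Ero1l and Ero1lb, the paired oxidases that pass oxidising equivalents to protein disulfide isomerases, moved in opposite directions. The brighter Ero1l probe, A_52_P423424, read 0.49, 0.49 and 0.49 in Magic-F1 and 1.21, 1.26 and 1.24 in controls. Spread within each group was far smaller than the gap between them (SD 0.0031 and 0.025). For this probe the log2 change was -0.74 ± 0.041 (SE, adjusted p = 5.98e-06 in limma), with -0.73 within slide 1, -0.77 within slide 2 and -0.30 after spike-in scaling. A second, dimmer Ero1l probe, A_51_P481693 (chr14:45904192-45904251), read -2.95, -3.11 and -3.03 in Magic-F1 and -3.23, -3.11 and -3.29 in controls, so the groups overlapped. Its log2 change of 0.18 ± 0.070 missed the threshold (adjusted p = 0.0533 in limma), was -0.10 after normexp correction and reached 0.62 after spike-in scaling. It was 0.27 within slide 1 and -0.0053 within slide 2. Over its alternatives the adjusted p ran from 0.000285 to 0.165, so the lower Ero1l signal rests on 1 of its 2 probes.

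Ero1lb was among the most raised of the set. Its brighter probe, A_52_P424462 (chr13:12701235-12701294, plus strand), read 0.73, 0.83 and 0.84 in Magic-F1 and -1.62, -1.66 and -1.53 in controls. The second probe, A_52_P603836, read 0.43, 0.48 and 0.53 against -1.72, -1.90 and -1.74. Both probes showed the same picture, with each Magic-F1 array far above each control array. The log2 changes were 2.40 ± 0.057 (SE, 5.28-fold, adjusted p = 1.88e-07 in limma) and 2.27 ± 0.065 (4.81-fold). The first was 2.36 within slide 1 and 2.49 within slide 2, and the second 2.21 and 2.38. After normexp correction the changes were smaller, 1.85 and 1.69. The remaining probe, A_51_P354642, made to the separate transcript AK004981, was not well above background on any array. The change of Ero1l minus that of Ero1lb was -3.15 on the log2 scale, larger than the spread between arrays. Its exact two-sided permutation p was 0.1, the smallest that 3 arrays against 3 can give (also 0.1 after Benjamini-Hochberg adjustment over 2 pairs of related genes).

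Pdia4, a protein disulfide isomerase of the ER, gave the smallest change among the brightest probes, and its direction depended on the scaling. The probe read 3.29, 3.32 and 3.40 in Magic-F1 and 3.71, 3.67 and 3.56 in controls. The groups did not overlap, but the nearest arrays were close together. The log2 change was -0.31 ± 0.061 (SE, adjusted p = 0.00309 in limma), -0.29 within slide 1 and -0.35 within slide 2. With median scaling it was -0.18 (adjusted p = 0.0551), and with spike-in scaling it turned to 0.13 (adjusted p = 0.0615). Over its 18 alternatives the adjusted p ran from 0.000317 to 0.0615.

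Creld2, an ER protein with EGF-like repeats that rises under ER stress, was lower in Magic-F1. Its probe, A_51_P122246 (chr15:88656997-88657056, plus strand, NM_029720), read 5.38, 5.41 and 5.46 in Magic-F1 and 6.07, 6.02 and 6.03 in controls. These correspond to processed intensities of 14769.7 to 15028 against 17977 to 19677. All Magic-F1 arrays lay below all controls. Creld2 thus changed by -0.62 ± 0.045 on the log2 scale (SE, 1.54-fold lower, adjusted p = 2.37e-05 in limma), with -0.63 within slide 1 and -0.61 within slide 2. After spike-in scaling it was -0.18 and still called (adjusted p = 0.0243, the highest over its alternatives, the lowest being 2.42e-07).

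The 3 EDEM genes encode lectin-like proteins related to mannosidases, which mark misfolded glycoproteins for removal. Edem1 was higher on all 3 of its probes, by very different amounts. Its brightest probe, A_51_P503866 (chr6:108808920-108808979, plus strand, from base 5427 of NM_138677), read 5.14, 5.14 and 5.23 in Magic-F1 and 2.12, 2.11 and 2.09 in controls. The log2 change was 3.07 ± 0.047 (SE, 8.38-fold, adjusted p = 4.65e-08 in limma), 3.09 within slide 1 and 3.03 within slide 2. That change stood at percentile 95.0 of all tested genes.

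The other Edem1 probes gave the same direction with a much smaller size. The probe at base 1787, shown above, read 2.53, 2.53 and 2.48 in Magic-F1 and 2.01, 2.01 and 1.89 in controls, a log2 change of 0.54 ± 0.053 (SE, adjusted p = 0.000105 in limma; 0.55 within slide 1 and 0.52 within slide 2). A_52_P86417 (chr6:108806892-108806951, from base 3399) was dimmer and read -2.05, -1.94 and -2.13 in Magic-F1 and -2.99, -3.07 and -2.91 in controls. Its log2 change was 0.95 ± 0.071 (SE), 0.86 within slide 1, 1.13 within slide 2 and 0.35 after normexp correction. On all 3 probes the groups stayed apart. The change at base 1787 was 2.52 smaller on the log2 scale than at base 5427, and that at base 3399 was 2.11 smaller. Each of these differences had an exact two-sided permutation p of 0.1, the smallest possible here. How much Edem1 mRNA as a whole rose is therefore not settled by these probes: the fold was 1.46 at base 1787 and 8.38 at base 5427.

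**Figure D2:**
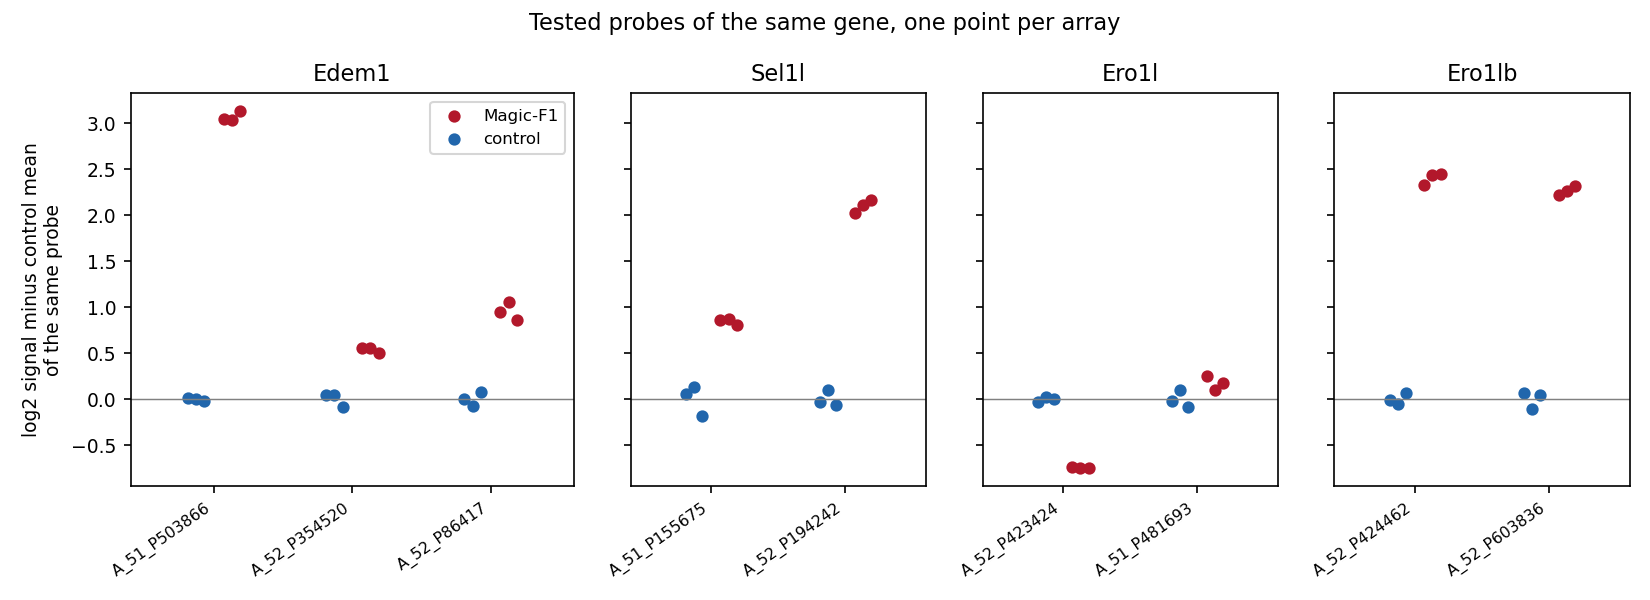
Signal of each tested probe of the 4 genes with more than 1, as log2 signal minus the mean of the control arrays for the same probe, one point per array. The Ero1lb probes moved alike, whereas the Edem1 probes rose by 3.07, 0.54 and 0.95 and the Sel1l probes by 0.84 and 2.10, and the Ero1l probes parted in direction.

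Edem2 rose by a similar order. Its probe, shown above, read 2.49, 2.55 and 2.49 in Magic-F1 and 0.48, 0.50 and 0.045 in controls. Control replicate 3 again lay below the other controls, and the groups stayed far apart. That gave a log2 change of 2.17 ± 0.13 (SE, 4.49-fold, adjusted p = 9.09e-06 in limma), 2.23 within slide 1 and 2.05 within slide 2. A second probe, A_52_P483217, made to the separate transcript AK040560, was not well above background on any array.

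Edem3 was close to the detection limit, and its call did not hold under every processing. Probe A_52_P139588 (chr1:153668950-153669009, plus strand, NM_001039644) was well above background on all 3 Magic-F1 arrays and on 0 of 3 control arrays. It read -4.44, -4.76 and -4.85 in Magic-F1 and -5.62, -6.44 and -5.15 in controls, at intensities of 11.8 to 16.4 and 3.20 to 7.72. The groups did not overlap, but the controls spread widely (SD 0.65). Measured against the dimmest signal that counted as above background, Edem3 was at least 1.20-fold higher in Magic-F1. That bound holds for the scanner's own background subtraction and not for the normexp correction given below. The fitted log2 change was 1.06 ± 0.33 (SE, adjusted p = 0.0223 in limma), 0.74 within slide 1 and 1.69 within slide 2. After normexp correction it was -0.11 (adjusted p = 0.0871) and without Magic-F1 replicate 1 it was 0.94 (adjusted p = 0.0694). Over all its alternatives the adjusted p ran from 0.00571 to 0.0871.

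On their brightest probes, the Edem1 change exceeded that of Edem2 by 0.90 on the log2 scale (exact two-sided permutation p = 0.1, adjusted 0.1 over the 2 pairs of related genes). Edem3 was not set against either, because its change has only a lower bound, and only with the scanner's background subtraction. Since the Edem1 probes themselves differed by 2.52, the order of Edem1 and Edem2 depends on the probe.

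Sel1l, the adaptor that joins substrates to the Syvn1 ligase, was higher on both tested probes. A_51_P155675 (chr12:93044483-93044528, minus strand, NM_001039089) read 1.14, 1.15 and 1.08 in Magic-F1 and 0.34, 0.41 and 0.098 in controls. A_52_P194242 (chr12:93044963-93045022) read 0.33, 0.41 and 0.47 against -1.72, -1.60 and -1.76. Each Magic-F1 array exceeded each control on both. The log2 changes were 0.84 ± 0.089 (SE, 1.79-fold, adjusted p = 0.00015 in limma) and 2.10 ± 0.066 (4.28-fold). They were 0.89 and 2.14 within slide 1, and 0.74 and 2.01 within slide 2. The second change was 1.26 larger on the log2 scale (exact two-sided permutation p = 0.1). After normexp correction the changes were smaller, 0.69 and 1.53. The first probe's coordinates cover 46 bases, fewer than its length. It is listed from base 2948 of the transcript and the second probe from base 5760. On the minus strand the genome coordinates put them in the opposite order, so where each probe binds is uncertain. The remaining probe, A_52_P107434, made to the separate transcript AK005544, was not well above background on any array.

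Herpud1, a membrane protein with a ubiquitin-like domain that works in the same ligase complex, was the one ERAD member that fell. Its probe, A_51_P434101 (chr8:96919117-96919176, plus strand, NM_022331), read -0.23, -0.34 and -0.35 in Magic-F1 and 0.83, 0.72 and 0.84 in controls. All Magic-F1 arrays lay below all controls. The log2 change was -1.10 ± 0.060 (SE, 2.15-fold lower, adjusted p = 5.79e-06 in limma), with -1.12 within slide 1, -1.06 within slide 2 and -0.66 after spike-in scaling. Of the 3 genes whose promoter motifs are printed above, Herpud1 and Creld2 were thus lower and Ero1lb higher.

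**Figure D3:**
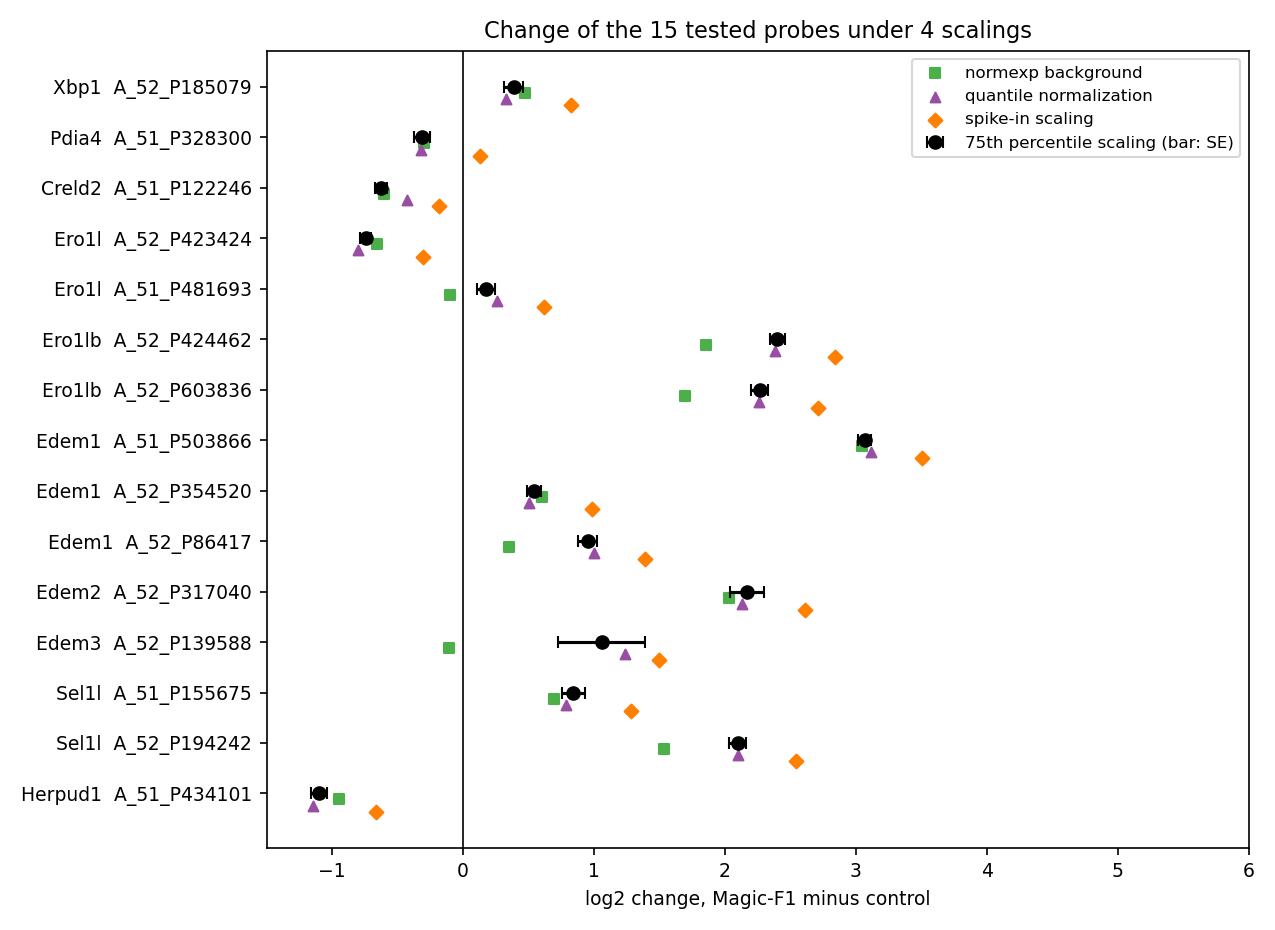
Log2 change (Magic-F1 minus control, 3 arrays each) of the 15 tested probes, ordered by the role of the gene; black points with bars are the estimate and its SE, and coloured marks are 3 other ways of processing the same arrays. Spike-in scaling shifts every probe to the right and carries Pdia4 across 0, and normexp correction carries Edem3 and the dimmer Ero1l probe across it.

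Other genes of the pathway moved in both directions as well, and no difference between the lists below was tested. List counts after spike-in scaling are to be read against all probes under that scaling, 10977 higher and 7261 lower. Of 37 ER chaperones and cochaperones, 11 were higher in Magic-F1 and 23 were lower, and their median change was -0.53 on the log2 scale (16 higher and 17 lower after spike-in scaling). Hspa5 (BiP), the main ER chaperone, fell from 7.57, 7.60 and 7.48 in controls to 6.41, 6.43 and 6.46 in Magic-F1, a log2 change of -1.12 ± 0.050 (SE, adjusted p = 2.48e-06 in limma; -0.68 after quantile normalization and -0.67 after spike-in scaling). Calr, a lectin chaperone, changed by -0.70, which was -0.26 after either quantile normalization or spike-in scaling. A second Calr probe gave -0.80. The ER stress protein Manf changed by -1.56, and the BiP cochaperones Dnajb9 and Dnajc3 by -0.81 and -0.98 (-0.37 and -0.54 after spike-in scaling). Their other probes gave -1.26 and -0.75 for Dnajb9, and -0.47 and -1.25 for Dnajc3. Hsp90b1 (GRP94) changed by -0.58, which was -0.14 and not called after spike-in scaling, and a second probe gave -0.12. Hyou1, an exchange factor for BiP, rose by 0.72, or 0.35 after normexp correction, and Sdf2l1, a BiP cofactor, by 0.51 (1.17 and 0.95 after spike-in scaling).

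Disulfide enzymes other than the members were mostly lower, 18 of 26 against 6 higher, and their median change was -0.47 (11 lower and 7 higher after spike-in scaling). P4hb, the founding protein disulfide isomerase, changed by -1.17, Pdia3 by -0.96, Pdia6 by -1.54 and the ER peroxiredoxin Prdx4 by -1.75. Other probes gave -1.80, -1.58 and -0.49 for Pdia6, and -1.49 for Prdx4. After spike-in scaling P4hb was -0.73 and Pdia3 -0.52, still in the same direction. Txndc5 changed by -0.46 but by -0.02 after spike-in scaling, where it was not called, and a second probe gave -0.79 without that scaling. Pdia4 and the brighter Ero1l probe lay on the side of this majority, and Ero1lb on the other.

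Recognition, channel and ubiquitin ligase genes of ERAD were higher in 14 and lower in 11 of 30, with a median of 0.16 (20 higher and 8 lower after spike-in scaling). Syvn1, the ligase that Sel1l serves, was 5.90, 5.88 and 5.94 in Magic-F1 and 4.93, 4.93 and 5.03 in controls. Its log2 change was 0.94 ± 0.049 (SE, adjusted p = 4.58e-06 in limma), and a second probe gave 0.80. Os9, the lectin that delivers glycoproteins to Sel1l, rose by 1.90 (1.69 on a second probe), while its relative Erlec1 changed by -0.66 on the brightest probe (-0.22 after spike-in scaling) and by 1.11 on another. The channel proteins Derl1, Derl2 and Derl3 changed by -0.17, 0.04 and -0.29. Derl2 did not pass the test on this probe and gave 0.77 on a second one, and the other probes of Derl1 disagreed in direction. After spike-in scaling the 3 were 0.28, 0.48 and 0.15.

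Among genes of extraction and cytosolic processing, 10 were higher and 17 lower of 32, with a median of -0.27 that turned to 0.17 after spike-in scaling (16 higher, 9 lower). Vcp, the ATPase that pulls substrates out, changed by 0.12 and did not pass the test, but was 0.56 and called higher after spike-in scaling. A second Vcp probe gave 0.01. Translocation and signal peptide cleavage genes, which bring proteins into the ER, were lower in 27 of 32 and higher in 2, with a median of -0.89 (21 lower and 4 higher after spike-in scaling). Sec61b, a subunit of the entry channel, changed by -1.74 and Ssr3, of the associated complex, by -1.29.

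The UPR sensors themselves were split. Among 18 tested sensors and transcription factors, 9 were higher and 7 lower, with a median of 0.23 (11 higher and 4 lower after spike-in scaling). Eif2ak3 rose from -0.26, -0.21 and -0.36 in controls to 1.96, 2.06 and 2.09 in Magic-F1, a log2 change of 2.31 ± 0.063 (SE, adjusted p = 3.18e-07 in limma). Atf6 rose by 1.65 on its brightest probe and changed by -0.66 on another. Ern1, the enzyme that splices Xbp1, changed by -0.61, or by -0.17 and without a call after spike-in scaling. Atf4, the factor translated downstream of PERK, fell by 1.69 on the log2 scale, and its target Ddit3 (CHOP) changed by -0.10 (adjusted p = 0.101 in limma) and did not pass the test. After spike-in scaling Ddit3 was 0.34 and called higher.

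**Figure D4:**
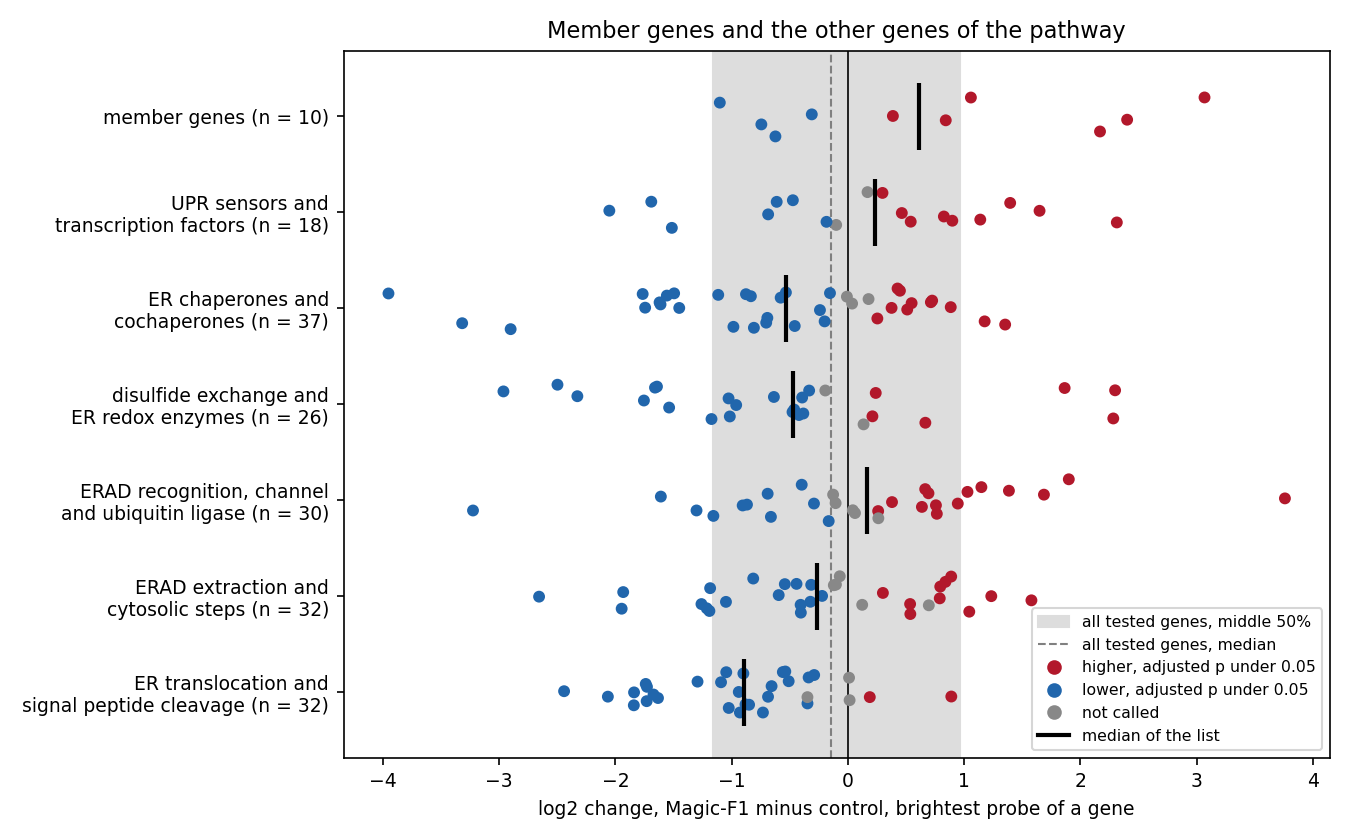
Log2 change (Magic-F1 minus control, brightest probe of a gene) of the 10 members and of the other genes of 6 pathway lists, one point per tested gene, red where called higher, blue where called lower and grey where not called, with a bar at each median. The grey band is the middle 50% of all 14905 tested genes, and the translocation list lies farthest to the left with a median of -0.89.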

How the data were processed

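Total RNA of each sample was amplified, labelled with Cy3 and hybridised to an array of Agilent design 014868 with viral spike-in transcripts, per the labels' protocols. The deposited scanner files hold spot intensity values made with Feature Extraction 10.5.1.1, per the file headers: gProcessedSignal is background-subtracted, and probe coordinates are on mm9. A deposited table of log2 values equals log2 of that signal on 4 arrays within 1e-06, but not in the columns numbered 1 of each group. The origin of that difference is unknown. Groups follow the source names, and replicate numbers follow the titles, since every source name ends in the same replicate number. Slide membership comes from the array files: slide 1 held replicates 1 and 3 of both groups, slide 2 replicate 2 of both.

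From the 43379 non-control spots of each array, 59 to 89 flagged as outliers were left out and spots of a probe were averaged. Log2 values were scaled to the array's 75th percentile. Testing covered the probes that passed the well-above-background flag in every array of either group, using limma 3.58.1 in R 4.3.3 with Benjamini-Hochberg adjustment and a threshold of 0.05. A gene is represented by its brightest tested probe; 25097 probes took their name through a RefSeq accession and 16077 kept that of the files. On simulated arrays with known changes over 21186 probes, the fit recovered 58% of probes changed by 0.5, 72% by 1 and 88% by 2 on the log2 scale, with 6 false calls among 20986 unchanged probes. Each size was given to 50 probes, far fewer than the 8745 called higher and 9847 called lower on the real arrays. Recovery and false calls with that many changed probes were not tested. Differences between probes or related genes were tested by exact permutation of the 6 arrays. Outside the set, the text names 27 pathway genes by a written list and at most the first 3 of each marker list. The exception is Vwf, which was named after its values were seen. Members and lists were chosen with earlier results of these data known. Alternatives covered background correction, scaling, filters, outliers, slide, replicate numbers, variance model, the deposited table and each array left out. Protein sequences were not used here.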

Additional observations from a re-analysis of the deposited data

How the results depend on the processing

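Of the 15 tested member probes, 12 kept their direction and 12 their call under every alternative that gave a test; the exceptions in both counts were Edem3, the dimmer Ero1l probe and Pdia4. With normexp correction Edem3 was -0.11 and the dimmer Ero1l probe -0.098. Within slide 2, without a test, that Ero1l probe was -0.0053. Spike-in scaling turned Pdia4 to 0.13 and, outside the set, Derl1 to 0.28, Derl3 to 0.15 and the median of the extraction list to 0.17. Spike-in scaling subtracts a single value from all probes of an array, so these changes all moved by the same amount. Why it differs from percentile scaling, and the cause of the other reversals, was not tested. Over all alternatives 5 to 6 members were called higher and 3 to 4 lower.

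The members' median of 0.61 was 0.18 with normexp, 0.56 with quantile normalization, 0.74 with median scaling, 1.05 with spike-in scaling, 0.39 when all 6 arrays had to be well above background (Edem3 then drops out) and 0.67 with the median over the probes of a gene. Leaving out 1 array gave 0.53 to 0.65. Spike-in scaling gave 4 sensors and transcription factors lower, 11 disulfide enzymes lower, 16 extraction genes higher and 9 lower, and 4 translocation genes higher. Of translocation genes, 1 was called higher with no filter on dim probes, 1 within slide 1, and 1 to 2 when an array was left out. After normexp the change of Ero1l minus that of Ero1lb was -2.51.

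Same-numbered samples did not all deviate together (correlations of -0.00292, 0.108 and 0.0689), so the numbers were not taken as pairs. With the replicate number as a block, 6 members were called higher and 4 lower, and all probes gave 8707 higher and 9841 lower against 8745 and 9847. Edem3 is the one member with no control array well above background on its brightest probe. Background correction also changed the size for other probes. After normexp the Ero1lb probes were 1.85 and 1.69 in place of 2.40 and 2.27. The second Sel1l probe was 1.53 in place of 2.10, and the Edem1 probe at base 3399 was 0.35 in place of 0.95.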
